A study of Rattus norvegicus with 6 samples.

Results

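The 8 genes described here, Abcd3, Abcd2, Ehhadh, Hsd17b4, Acaa1a, Acaa1b, Scp2 and Pex11a, belong to peroxisomal beta-oxidation and its supply. They were taken by symbol from a liver expression table of 32930 genes, of which 18455 passed the filter on low counts and were tested, all 8 genes among them. The table annotates 8 of 8 with the KEGG pathway Peroxisome, 4 of 8 (Ehhadh, Acaa1a, Acaa1b and Scp2) with PPAR signaling, and 2 of 8 (Abcd3 and Abcd2) with ABC transporters. Livers came from 3 animals on a high-fat diet with the vehicle, 0.5% CMC-Na (HFD group), and from 3 animals on the high-fat diet with HTG (HTG group), after 12 weeks of intervention. HTG is the Huazhuo Tiaozhi granule, a herbal formula. Both groups thus received the high-fat diet, and no group on a normal diet was analysed here. The 12 weeks, and the vehicle for the HFD group alone, are as the series gives them. For rats, the study's methods describe 12 weeks of high-fat diet, with drugs in 0.5% CMC-Na given over the last 8 weeks. The sample labels name rats and write HCG in the treatment field of the HTG samples, the study's sequencing methods name C57BL/6 J mice, and all rows of the table are mouse Ensembl genes and were read as such. The series describes 6 animals for the 6 samples, with no strain in the labels and no age in the sources used here.

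Peroxisomes shorten fatty acids that mitochondria handle poorly, above all very long-chain, branched-chain and dicarboxylic acids. The acyl groups enter through half-size ABC transporters of the ABCD family. Acyl-CoA oxidases begin each cycle, a bifunctional protein hydrates and dehydrogenates the product, and a thiolase releases acetyl-CoA. In rodent liver the pathway is known as a target of PPAR-alpha, the nuclear receptor through which peroxisome proliferators act, and dividing peroxisomes use proteins of the PEX11 family.

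Of the 8 genes, Abcd3 alone had HFD and HTG libraries that did not overlap in CPM (counts scaled to a common library total, the scale of the tests), and it was 0.364-fold as high in the HTG group. Ehhadh and Hsd17b4 had lower averages in the HTG group, with libraries that overlapped in CPM. In FPKM, which also divides by transcript length, the groups of Hsd17b4 were just apart, at 83.27 and 83.10 for the nearest libraries. Scp2 and Acaa1a, which together with Acaa1b cover the thiolase step, lay within 0.06 of no difference on the log2 scale. Except for Abcd3, the highest and lowest libraries of 1 group lay further apart in CPM, as a ratio, than the group averages did. This spread was widest for Ehhadh, Acaa1b and Pex11a, in the HFD group. None of the 8 passed an adjusted p under 0.05 in edgeR, at which 0.00542% of all genes tested were called lower and 0.00542% higher in the HTG group. At an unadjusted p under 0.05, 3 of 8 were lower in the HTG group (Abcd3, Ehhadh and Hsd17b4), against 12.4% of all genes, and 0 of 8 were higher, against 12.3%. Groups did not overlap in CPM for 1 of 8 in the lower direction, against 15.5% of all genes, and for 0 of 8 in the higher direction, against 16.5%. The median log2 fold change of the 8 genes was -0.60, and that of all genes was 0.03. The fitted change lay below 0 for 7 of 8, and for 48.4% of all genes.

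**Figure D1:**
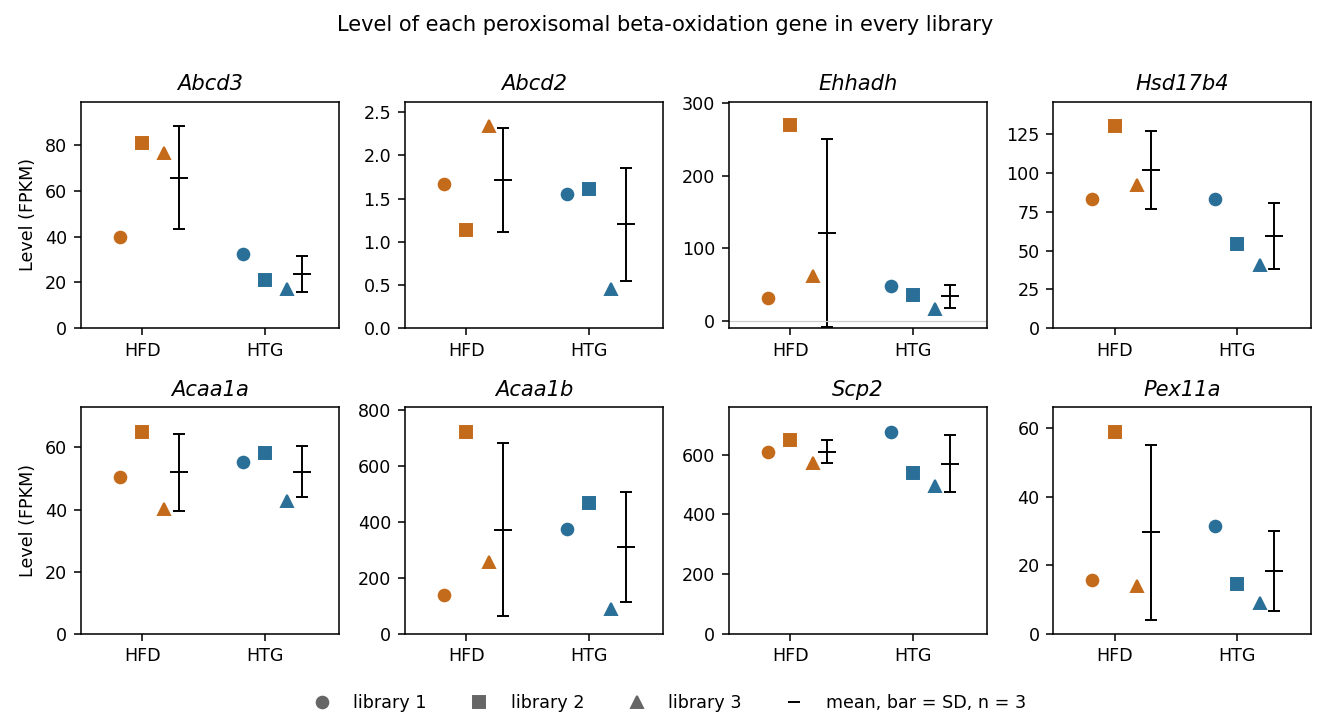
Level of each of the 8 genes (FPKM, linear axis that includes 0, a separate scale per gene) in the 3 HFD and 3 HTG libraries, with the library number shown by the symbol and the mean ± SD (n = 3) beside each group. The groups of Abcd3 do not overlap, with 40.05 FPKM or more in HFD and 32.36 or less in HTG, those of Hsd17b4 nearly touch, at 83.27 and 83.10 FPKM, and HFD library 2 is far above the rest for Ehhadh (269.43 FPKM), Acaa1b (723.53 FPKM) and Pex11a (59.08 FPKM).

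Estimated counts summed to between 50648778 and 90563477 per library, and since low counts came in steps of about 4, this is 12662194 to 22640869 fragments. The limit that 3 fragments allow for an empty gene was 0.123 to 0.256 CPM, and all 8 genes were above it in every library. Mitochondrial genes took 4.97% to 6.45% of the counts in HFD and 9.31% to 15.2% in HTG. The summed level of 8 hepatocyte markers was 87589 to 99380 CPM in the HFD group and 78662 to 85972 CPM in the HTG group, without overlap. Alb, named after its values were seen, made up most of each sum, with 57854 to 74503 CPM in HFD and 53506 to 55201 CPM in HTG. Its log2 fold change was -0.28 (edgeR adjusted p = 0.555). Taken singly, 3 of the 8 markers had groups that did not overlap in the lower direction and 1 in the higher, against 15.5% and 16.5% of all genes. At an unadjusted p under 0.05, 1 of these markers was higher in HTG and 1 was lower, against 12.3% and 12.4% of all genes. The labelled tissue was liver, and no hepatocyte marker was at 0. Summed levels of 8 Kupffer cell and macrophage markers ran from 616 to 1137 CPM in HFD and from 437 to 770 CPM in HTG. All 8 of these had fitted changes below 0, against 48.4% of all genes. At an unadjusted p under 0.05, 2 were lower, against 12.4% of all genes. Adgre1, 1 of these 2 and named after its values were seen, had a log2 fold change of -1.53 and groups that did not overlap (edgeR unadjusted p = 0.000334, adjusted p = 0.0538). Clec4f and Timd4, also named after their values were seen, were close to no change, at -0.08 and -0.02 (edgeR adjusted p = 0.894 and 0.988). Summed levels of 8 sinusoidal endothelial markers ran from 68.2 to 171 CPM in HFD and from 120 to 183 CPM in HTG. HFD library 2 held the lowest sum of its group for both, and so did HTG library 3. Stellate, cholangiocyte, lymphocyte and neutrophil, red cell, pancreas and adipocyte marker sums overlapped between the groups, and Adipoq and the pancreatic genes Pnlip, Cela3b and Ctrb1 were at 0 in every library. In bulk liver, fewer hepatocytes and less RNA of a gene per hepatocyte cannot be told apart. The part of these values in the differences described here was not tested.

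On the FPKM scale, which divides by transcript length and so allows genes to be compared, Scp2 was the most abundant of the 8 genes and made up 48.7% of their summed mean level. Acaa1b followed with 28.2%, then Hsd17b4 with 6.66%, Ehhadh with 6.37%, Acaa1a with 4.30%, Abcd3 with 3.69%, Pex11a with 1.97% and Abcd2 with 0.12%. Scp2 was above Acaa1b in 5 of 6 libraries, and Acaa1b was above Hsd17b4 in 6 of 6. The middle of the order was not settled. Hsd17b4 exceeded Ehhadh in 5 of 6 libraries and Acaa1a in 4 of 6, Ehhadh exceeded Acaa1a in 2 of 6 and Abcd3 in 3 of 6, and Acaa1a exceeded Abcd3 in 4 of 6. At the lower end Abcd3 was above Pex11a, and Pex11a above Abcd2, in 6 of 6 libraries. By group means, Ehhadh had rank 3 in the HFD group and rank 5 in the HTG group, and Abcd3 rank 5 and rank 6.

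Abcd3 (ENSMUSG00000028127, chr3:121552423-121608951, minus strand in the table's coordinates) encodes PMP70, an abundant protein of the peroxisomal membrane that brings branched-chain and dicarboxylic acyl-CoAs into the organelle. Its level was 40.05, 81.17 and 76.60 FPKM in HFD libraries 1, 2 and 3. In HTG libraries 1, 2 and 3 it was 32.36, 21.26 and 17.07 FPKM. Every HTG library was thus below every HFD library, although HFD library 1 was close to HTG library 1. The group means were 65.9 ± 22.5 FPKM in HFD and 23.6 ± 7.90 FPKM in HTG (SD, n = 3 each). In edgeR the log2 fold change was -1.46 (SE 0.35, 95% interval -2.27 to -0.65), with an unadjusted p of 0.00307 and an adjusted p of 0.0654. The call thus missed the threshold after adjustment. With HFD library 2 left out the log2 fold change was -1.22, with an unadjusted p of 0.0111 and an adjusted p of 0.144 in edgeR. Abcd3 was lower at an unadjusted p under 0.05 in 17 of 17 alternative settings, and at an adjusted p under 0.05 in 4 of them. These were DESeq2, where 7.55% of all genes were lower at that threshold, limma on log2(FPKM + 0.1) and on log2(FPKM + 1), where 5.05% and 5.08% were, and edgeR without HTG library 1, where 2.17% were. The gene Gm43609, which overlaps it on the same strand, had 0.739% as many counts as Abcd3.

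Abcd2 (ENSMUSG00000055782, chr15:91030074-91076002, minus strand) encodes ALDRP, a related transporter of very long-chain and polyunsaturated acyl-CoAs that is known to be sparse in liver. It was the least abundant of the 8 genes, at 1.67, 1.14 and 2.34 FPKM in HFD and 1.55, 1.61 and 0.45 FPKM in HTG. The groups overlapped, and HTG library 3 held the lowest value. The log2 fold change was -0.48 (SE 0.43, 95% interval -1.47 to 0.50, edgeR adjusted p = 0.519). Unlike the other members, Abcd2 was not high in HFD library 2, where it had its lowest HFD value. Abcd4, a family member known for handling cobalamin in lysosomes and not for peroxisomal import, had 16.2 to 20.4 CPM in HFD and 22.2 to 25.4 CPM in HTG, a log2 fold change of 0.37 (edgeR adjusted p = 0.197).

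Ehhadh (ENSMUSG00000022853, chr16:21580037-21606557, minus strand) encodes the L-bifunctional protein, which hydrates enoyl-CoA and dehydrogenates the product and is used for dicarboxylic acids. It had 31.19, 269.43 and 61.90 FPKM in HFD libraries 1, 2 and 3 and 48.39, 36.12 and 16.35 FPKM in HTG libraries 1, 2 and 3. A single library, HFD library 2, stood above the other 5, and HFD library 1 lay below HTG libraries 1 and 2. The log2 fold change of -1.88 was the largest in size of the 8 genes, with an SE of 0.77 and a 95% interval from -3.65 to -0.11 (edgeR unadjusted p = 0.0399, adjusted p = 0.18). Leaving out HFD library 2 gave -0.40, with an interval from -1.45 to 0.65 (edgeR unadjusted p = 0.401).

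Hsd17b4 (ENSMUSG00000024507, chr18:50261268-50329336, plus strand) encodes the D-bifunctional protein, which carries out the same steps with the opposite stereochemistry and serves very long-chain and branched-chain substrates and bile acid precursors. Its HFD values were 83.27, 130.40 and 92.16 FPKM, and its HTG values were 83.10, 54.42 and 41.05 FPKM. HFD library 1 and HTG library 1 were nearly level, and in CPM, at 283 and 303, their order was the opposite. The log2 fold change was -0.75 (SE 0.32, 95% interval -1.47 to -0.03, edgeR unadjusted p = 0.043, adjusted p = 0.187). Leaving out HFD library 2 gave -0.48 (edgeR unadjusted p = 0.163). Within libraries, the log2 ratio of Ehhadh to Hsd17b4 on the FPKM scale was -1.42, 1.05 and -0.57 in HFD and -0.78, -0.59 and -1.33 in HTG. Ehhadh thus exceeded Hsd17b4 in HFD library 2 alone. The group means of this ratio differed by -0.59, less than the spread within the HFD group (exact two-sided permutation test, p = 0.6, adjusted p = 0.7 over 2 ratios, smallest possible p = 0.1).

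Acaa1a and Acaa1b encode the rodent 3-ketoacyl-CoA thiolases A and B, which cleave straight-chain products. Acaa1b (ENSMUSG00000010651, chr9:118977091-118986161, minus strand) had 139.17, 723.53 and 255.30 FPKM in HFD and 374.45, 467.06 and 89.20 FPKM in HTG. The lowest and the highest values of each group lay far apart, and the groups overlapped widely. Acaa1a (ENSMUSG00000036138, chr9:119168742-119179364, plus strand) had 50.57, 65.14 and 40.19 FPKM in HFD and 55.40, 58.33 and 42.86 FPKM in HTG. Its range over the 6 libraries was narrower than that of Acaa1b. The log2 fold change was -0.31 for Acaa1b (SE 0.70, 95% interval -1.91 to 1.29, edgeR adjusted p = 0.82). For Acaa1a it was 0.03 (SE 0.25, 95% interval -0.53 to 0.59, edgeR adjusted p = 0.957). Leaving out HFD library 2 gave 0.70 for Acaa1b and 0.28 for Acaa1a, neither with an unadjusted p under 0.05 in edgeR. Acaa1a made up 26.7%, 8.26% and 13.6% of the summed FPKM of both genes in HFD and 12.9%, 11.1% and 32.5% in HTG. This share was highest where Acaa1b was lowest, in HFD library 1 and HTG library 3, and its group means differed by 2.64 percentage points (exact two-sided permutation test, p = 0.7, adjusted p = 0.7 over 2 ratios). The coding sequences of the 2 genes are near-identical, so how reads were divided between them is uncertain, and Myd88, which overlaps Acaa1a on the opposite strand, had 9.54% as many counts as Acaa1a.

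The promoters of both thiolase genes are shown because the genes encode the same activity and yet differed in their spread between libraries. The sequences are from RefSeq, in the rat build GRCr8, where 8 of 8 members matched by symbol. They are therefore rat sequences set beside values of mouse gene rows. Each holds the 250 bases before the annotated start, 5′ to 3′ on the gene's strand, with the 5-letter motif CCAAT or its complement ATTGG in capitals. The Acaa1a window is chr8:127957231-127957480 (plus strand), and the Acaa1b window is chr8:127759570-127759819 (minus strand).
Acaa1a: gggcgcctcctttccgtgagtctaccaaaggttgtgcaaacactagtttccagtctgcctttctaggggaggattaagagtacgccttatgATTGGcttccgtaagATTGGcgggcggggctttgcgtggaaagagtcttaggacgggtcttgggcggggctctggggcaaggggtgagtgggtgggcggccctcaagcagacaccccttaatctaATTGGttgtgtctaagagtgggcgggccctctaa
Acaa1b: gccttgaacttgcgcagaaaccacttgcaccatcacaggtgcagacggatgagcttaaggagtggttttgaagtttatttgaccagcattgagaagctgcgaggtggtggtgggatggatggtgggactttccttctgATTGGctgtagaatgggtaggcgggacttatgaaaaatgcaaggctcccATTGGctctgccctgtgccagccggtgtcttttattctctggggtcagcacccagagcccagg
A global alignment of the 2 windows had 115 identical bases in 263 columns (43.7%). Acaa1a held 3 matches to CCAAT on either strand and Acaa1b held 2. Of 33469 promoters of this length in the table, 34.0% held the motif, as did 4 of 8 members (Ehhadh, Acaa1a, Acaa1b and Abcd2). The exact direct repeat AGGTCANAGGTCA, searched on both strands, was in 0 of 8 members and in 17 promoters in all (0.0508%), which says only that these letters are not in this window.

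Scp2 (ENSMUSG00000028603, chr4:107901036-108002191, minus strand) encodes both the thiolase SCPx, which cleaves branched-chain products and bile acid precursors, and the lipid carrier SCP2. Values per gene do not separate these products. Its level was 610.07, 651.04 and 572.81 FPKM in HFD and 678.40, 537.91 and 495.21 FPKM in HTG. It was the steadiest of the 8 genes, with a highest-to-lowest ratio of 1.37 over all 6 libraries on the FPKM scale. The log2 fold change was -0.06 (SE 0.23, 95% interval -0.60 to 0.48, edgeR adjusted p = 0.903). A pseudogene, Scp2-ps2, named after its values were seen, had 6.09% as many counts as Scp2, so a small part of its reads may be divided uncertainly.

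Pex11a (ENSMUSG00000030545, chr7:79385705-79392879, minus strand) encodes a membrane protein that elongates peroxisomes before they divide and is induced by peroxisome proliferators. It had 15.75, 59.08 and 13.89 FPKM in HFD and 31.39, 14.51 and 8.84 FPKM in HTG. HFD library 2 was the highest of all and HTG library 1 the next, and HTG library 3 was the lowest. The log2 fold change was -0.71 (SE 0.65, 95% interval -2.20 to 0.78, edgeR adjusted p = 0.533). Leaving out HFD library 2 gave 0.38 (95% interval -0.71 to 1.48). The overlapping antisense gene Gm44706 had 2.56% as many counts as Pex11a.

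**Figure D2:**
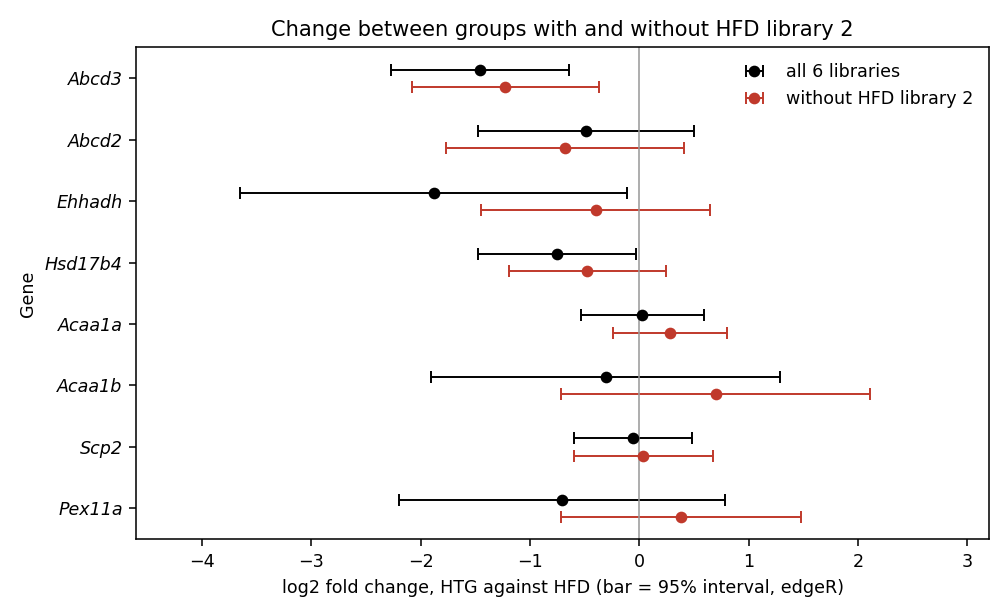
Log2 fold change of each gene, HTG against HFD, with its 95% interval from edgeR, for all 6 libraries (black) and without HFD library 2 (red). Abcd3 stays below 0 in both (-1.46 and -1.22). The intervals of Ehhadh (-1.88 and -0.40) and Hsd17b4 (-0.75 and -0.48) move from wholly below 0 to spanning 0. Acaa1b, Scp2 and Pex11a change sign.

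The spread within a group differed between the 8 genes more than the group means did. In the HFD group, the ratio of the highest to the lowest library in CPM was 9.59 for Ehhadh, larger than for 99.5% of the 8012 genes with a mean of at least 10 CPM. It was 5.77 for Acaa1b (larger than 98.9%) and 4.67 for Pex11a (larger than 98.4%). Abcd3 had a ratio of 2.25 and Scp2 a ratio of 1.25, and the median of the 8012 genes was 1.36. In the HTG group the ratios were 4.51 for Acaa1b, 3.31 for Pex11a, 3.24 for Abcd2 and 2.76 for Ehhadh, against a median of 1.33. The variable genes were thus largely shared by both groups.

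The libraries that were high or low in CPM recurred from gene to gene. HFD library 2 held the highest value of 6 of 8 genes, Abcd2 and Scp2 being the exceptions, where 21.4% of all genes had their highest value there. HTG library 3 held the lowest value of 6 of 8, against 14.8% of all genes. Within the HTG group, library 1 was the highest in CPM for 7 of 8, against 35.2% of all genes. Without HFD library 2 the median log2 fold change of the 8 genes was -0.18, 4 of 8 lay below 0, and 1 of 8, Abcd3, was lower at an unadjusted p under 0.05 in edgeR, against 9.72% of all genes. Abcd3 was also the single member lower at that threshold without HTG library 2 (8.09% of all genes) and without HTG library 3 (8.7%). Without these HTG libraries the log2 fold change was -1.88 and -1.55 for Ehhadh and -0.65 and -0.56 for Hsd17b4. With all libraries kept, Ehhadh was not below that threshold in DESeq2 (unadjusted p = 0.0597) or in limma on FPKM (unadjusted p from 0.105 to 0.12 in 3 settings), while Hsd17b4 was. HFD library 2 and HTG library 3 each had the lowest sums of Kupffer cell and endothelial markers in their group, as given above. Most members were high in the first of these libraries and low in the second. The part of the marker sums in these values was not tested.

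As a description over the 6 libraries, which share depth and scaling across genes, the 28 pairs of genes had a median Pearson correlation of log2 CPM of 0.608, from -0.15 to 0.92. The closest pair was Hsd17b4 and Abcd3, at 0.92 over 6 libraries and 0.87 over the 5 without HFD library 2. Ehhadh and Pex11a were at 0.89, and at 0.60 without that library. Ehhadh and Acaa1b were at 0.82, and at 0.70 without it. Acaa1a and Abcd3 were at 0.09, and at -0.67 without it. Without HFD library 2 the median of all pairs was 0.511. Of 7866 genes outside the lists, Rtf2, Vps54 and Phb2 were most like the average of the 8 genes, with correlations of 0.984, 0.984 and 0.983 over 6 libraries. Rtf2 takes part in the ending of replication, Vps54 in the tethering of vesicles to the Golgi, and Phb2 encodes a prohibitin of the inner mitochondrial membrane.

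**Figure D3:**
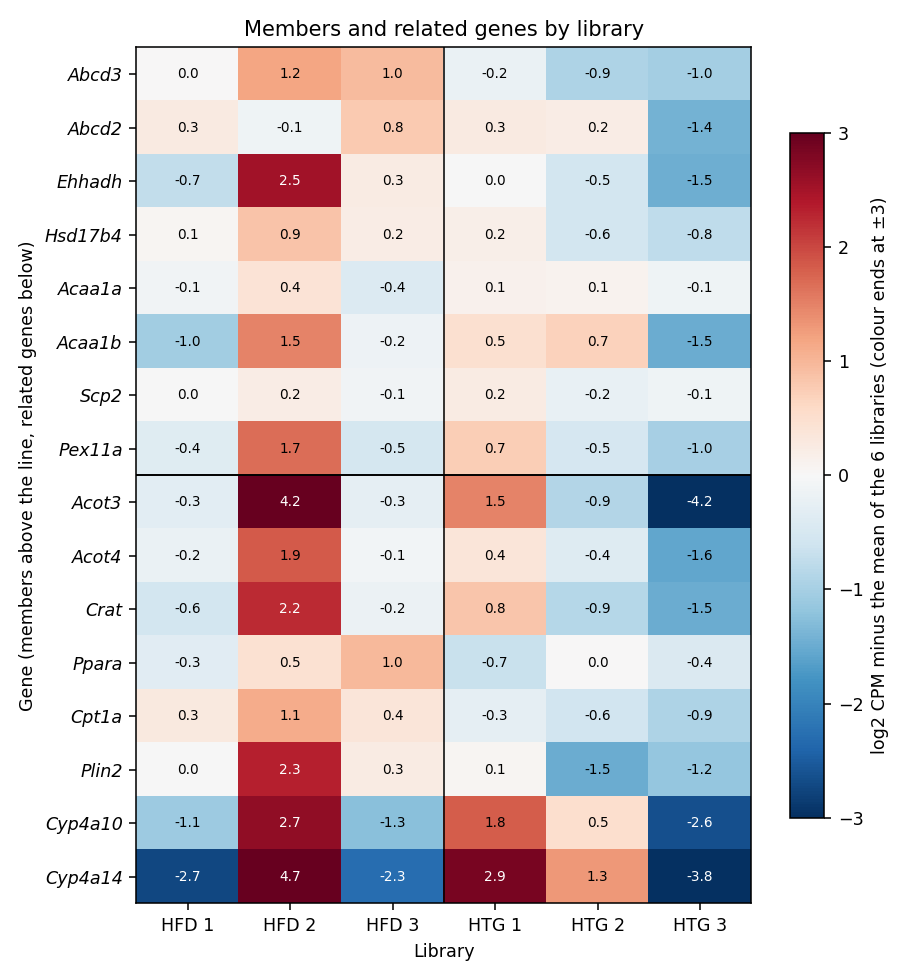
Level of the 8 genes (above the line) and of 8 related genes (below it) in each library, as log2 CPM minus the mean of the 6 libraries, with the value printed in each cell and colours ending at ±3. HFD library 2 is the highest column for every gene shown except Abcd2, Scp2 and Ppara. HTG library 1 is also above the mean for genes that include Acaa1b, Pex11a, Acot3, Crat, Cyp4a10 and Cyp4a14. Abcd3 is at or above its mean in all 3 HFD libraries and below it in all 3 HTG libraries.

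Amacr, the racemase that prepares branched-chain acyl-CoAs and bile acid intermediates for oxidation, had 114 to 123 CPM in HFD and 72.1 to 80.2 CPM in HTG. Its groups did not overlap, and its log2 fold change was -0.63 with all libraries (edgeR unadjusted p = 0.00366, adjusted p = 0.068) and -0.64 without HFD library 2. Of the 11 beta-oxidation enzymes tested beside the members, 1 (Amacr) was lower and 0 were higher at an unadjusted p under 0.05. The shares of all genes were 12.4% and 12.3%. The median log2 fold change of these enzymes was -0.34.

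Of 18 genes listed for the import and export of acyl groups, 2 were lower at an unadjusted p under 0.05 and 1 was higher. Of all genes, 12.4% were lower and 12.3% higher. The median of the list was -0.26. Nudt19, a hydrolase of coenzyme A esters, was one of the lower genes, with 31.5 to 36.4 CPM in HFD and 19.5 to 25.2 CPM in HTG (log2 fold change -0.62, edgeR adjusted p = 0.0804). The higher one was Abcd4, which was listed with its family though, as given above, it is not known for peroxisomal import. Crat, a carnitine acetyltransferase that exports short acyl groups, had 24.6, 172 and 31.8 CPM in HFD and 64.9, 19.9 and 12.9 CPM in HTG. The thioesterase gene Acot3 had 4.33, 96.6 and 4.46 CPM in HFD and 15.1, 2.96 and 0.299 CPM in HTG. Both, named after their values were seen, had HFD library 2 first and HTG library 1 next, as did Pex11a, while the order of the libraries between these and HTG library 3 differed from that of Pex11a.

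Among 18 other matrix enzymes, 4 were lower and 2 were higher at an unadjusted p under 0.05, against 12.4% and 12.3% of all genes. The median was -0.20. Uox, the urate oxidase of the peroxisome core, had 1841 to 2668 CPM in HFD and 1012 to 1378 CPM in HTG (log2 fold change -0.96, edgeR adjusted p = 0.0725). Cat, the catalase that removes the hydrogen peroxide of beta-oxidation, was at -0.53, the protease Lonp2 at -0.46 and Gnpat, which begins plasmalogen synthesis, at -0.41, with edgeR adjusted p-values of 0.174, 0.192 and 0.202. The higher ones were Far2, which makes fatty alcohols, at 1.10 and Agxt, which detoxifies glyoxylate, at 0.52, with edgeR adjusted p-values of 0.0823 and 0.136.

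Of 20 peroxins and membrane proteins, which build and divide the organelle, 7 were lower and 1 was higher at an unadjusted p under 0.05. Shares of all genes were 12.4% and 12.3%, and the median of the list was -0.28. Pex3 and Pex19, which insert membrane proteins, had log2 fold changes of -0.82 and -0.71. Pex7, an import receptor, and Pex14, the docking protein of import, had -0.83 and -0.88. The edgeR adjusted p-values of these 4 lay between 0.0644 and 0.0839, and none of the 4 overlapped between groups. Of all 20, groups of 6 in the lower and 1 in the higher direction did not overlap, against 15.5% and 16.5% of all genes. Pex3 had 17.6, 26.1 and 19.3 CPM in HFD and 11.5, 11.0 and 13.2 CPM in HTG. The higher one was Dnm1l, the dynamin that divides peroxisomes and mitochondria, at 0.44 (edgeR adjusted p = 0.147).

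These 4 lists together held 67 tested genes of 71 listed. At an unadjusted p under 0.05, 14 were lower and 4, Abcd4 among them, were higher, against 12.4% and 12.3% of all genes. Groups did not overlap in CPM for 14 in the lower and 5 in the higher direction, against 15.5% and 16.5% of all genes. The median was -0.27, and 0 passed an adjusted p under 0.05. Without HFD library 2, 10 were lower and 2 higher at an unadjusted p under 0.05, against 9.72% and 10.6% of all genes. The median was then -0.11. Beside the 8 members, the table annotates 74 tested genes with the KEGG pathway Peroxisome. With all libraries, 16 of these were lower and 3 higher at an unadjusted p under 0.05, against 12.4% and 12.3% of all genes. Their median was -0.29. HFD library 2 held the highest value of 29 of the 67 genes, against 6 of the 8 members and 21.4% of all genes.

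**Figure D4:**
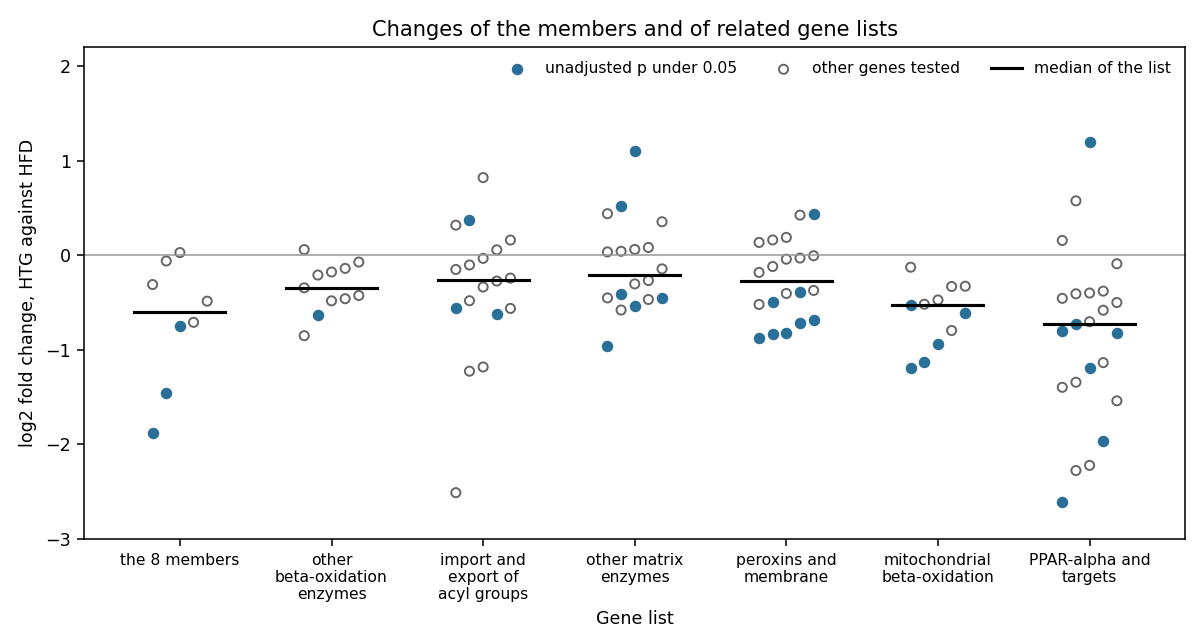
Log2 fold change, HTG against HFD (edgeR, all 6 libraries), of every tested gene of the 8 members and of the 6 lists compared with them, with genes at an unadjusted p under 0.05 filled and the median of each list as a bar. All medians lie below 0, from -0.20 for other matrix enzymes to -0.73 for PPAR-alpha and its targets, and the members range from -1.88 (Ehhadh) to 0.03 (Acaa1a).

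The mitochondrial pathway, which oxidises long and medium chains, was compared because it shares substrates with the peroxisomal one. Of its 11 genes, 5 were lower and 0 higher at an unadjusted p under 0.05, against 12.4% and 12.3% of all genes. The median was -0.53, and 11 of 11 lay below 0, against 48.4% of all genes. Hadha and Hadhb, the subunits of the mitochondrial trifunctional protein, had log2 fold changes of -1.13 and -1.19, and the 3-hydroxyacyl-CoA dehydrogenase gene Hadh had -0.94 (edgeR adjusted p = 0.0962, 0.129 and 0.0996). Echs1, the short-chain hydratase, had -0.53. HFD library 2 was the highest for 10 of 11, against 21.4% of all genes. Without it 3 were lower at that threshold, against 9.72% of all genes, with a median of -0.41.

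Ppara, the receptor itself, had 20.4, 35.3 and 50.6 CPM in HFD and 16.1, 25.9 and 19.1 CPM in HTG, a log2 fold change of -0.80 (edgeR unadjusted p = 0.0392, adjusted p = 0.178). HFD library 2 was not its highest library. Of 23 genes in the list of PPAR-alpha and targets outside the peroxisome, 6 were lower and 1 was higher at an unadjusted p under 0.05. The shares of all genes were 12.4% and 12.3%, and the median of the list was -0.73. Cpt1a, which admits fatty acids to mitochondria, had a log2 fold change of -1.19 with groups that did not overlap (edgeR adjusted p = 0.0654), and -0.89 without HFD library 2. Rxra, the partner of the receptor, had -0.73, the lipid droplet protein gene Plin2 had -1.96 and the kinase gene Pdk4 had -2.61 (edgeR adjusted p = 0.0785, 0.124 and 0.126). The higher one was Fabp1, the liver fatty acid-binding protein gene, with 491 to 1320 CPM in HFD and 1449 to 2647 CPM in HTG (log2 fold change 1.20, edgeR adjusted p = 0.125).

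HFD library 2 held the highest value of 19 of these 23 genes, against 21.4% of all genes. Without it the median was 0.11, with 3 lower and 5 higher at an unadjusted p under 0.05. Of all genes, 9.72% were lower and 10.6% higher in that fit. The omega-hydroxylases Cyp4a10 and Cyp4a14, which make dicarboxylic acids and were named after their values were seen, showed a wide spread. Cyp4a10 had 45.0, 602 and 39.9 CPM in HFD and 335, 135 and 15.3 CPM in HTG. Cyp4a14 had 8.25, 1395 and 11.4 CPM in HFD and 398, 135 and 3.93 CPM in HTG. HFD library 2 was first, HTG library 1 next and HTG library 3 last for both genes and for Pex11a. In between the orders differed, since HTG library 2 followed HTG library 1 for the Cyp4a genes and HFD library 1 did for Pex11a. For Cyp4a14 the log2 fold change was -1.40 with all libraries and 4.19 without HFD library 2, so that the sign of the difference rested on that library.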

How the data were processed

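Liver RNA of 3 HFD and 3 HTG samples was analysed, grouped by the sample titles. No 2 libraries held identical values (Pearson r of log2 CPM 0.946 to 0.977). The libraries were poly(A)-selected, strand-marked and paired-end. The authors deposited estimated counts as whole numbers, with no scaling between libraries. The deposited FPKM values had been scaled by the authors to transcript length and library total. The submitters' processing notes name HISAT2, StringTie, SAMtools and the rat build mRatBN7.2, without versions or roles, while the rows are mouse genes, so the table's coordinates are printed with no build assigned. Whether the strand was used in counting is not given in the sources used here.

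Counts were tested across all genes with edgeR 4.0.16 in R 4.3.3 (glmQLFit, glmQLFTest, TMM scaling, filterByExpr, Benjamini-Hochberg adjustment over 18455 genes). CPM values were scaled by TMM. Ratios within libraries were tested on FPKM by exact permutation. The 8 members and all lists were chosen with earlier results of these data known. All members were named, with Ppara and up to 4 genes per list and direction by smallest unadjusted p under 0.05, except a few genes that are not reported here. The 3 genes most like the members came from genes outside the lists with a mean of at least 10 CPM. Acot3, Adgre1, Alb, Clec4f, Crat, Cyp4a10, Cyp4a14, Scp2-ps2, Timd4 and, in the plot by library, Acot4 were named after their values were seen. Overlapping genes were read from the table's coordinates. Promoters were aligned with Biopython 1.88.

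Alternatives were DESeq2 1.42.0, its size factors, upper-quartile scaling, leaving out mitochondrial genes, no filter, a minimum of 10 counts per library, counts divided by 4, limma 3.58.1 on log2(FPKM + 0.1) or log2(FPKM + 1) with a mean FPKM of at least 1 or no filter, the replicate number as a block, and each library left out. The test was checked on simulated counts of 17770 genes: at a log2 change of 1, edgeR called 11 of 97 changed genes at an adjusted p under 0.05, at a log2 change of 2 it called 53 of 97, and it called 7 unchanged genes.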

Additional observations from a re-analysis of the deposited data

How the results depend on the processing

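With all 6 libraries, 0 members passed an adjusted p under 0.05 in edgeR. The count was 1, Abcd3, in DESeq2 (where 7.55% of all genes were lower) and in limma with a mean FPKM of at least 1 (5.05% with a pseudocount of 0.1 and 5.08% with 1), and 0 to 1 with a library left out, the 1 without HTG library 1. Members lower at an unadjusted p numbered 3, and 1 to 3 with a library left out, the 1 when HFD library 2 or either of HTG libraries 2 and 3 was left out. It was 2 in DESeq2, where Ehhadh was lost and 14.5% of all genes were lower at that threshold. It was also 2, again without Ehhadh, in limma on FPKM. With a mean FPKM of at least 1, 19.1% of all genes were lower there with a pseudocount of 0.1 and 19.2% with 1. With no filter 9.24% were. Deviations of same-numbered libraries correlated at -0.25, -0.10 and 0.25, and those of differently numbered ones at -0.28 to 0.39. Deviations from the mean of 3 libraries are not independent, so these values cannot decide whether replicate numbers pair the samples. In a replicate block fit, 1 member (Abcd3), 9 lower and 2 higher genes of the 4 lists passed the unadjusted threshold, as did 10.5% of all genes in the lower and 10.4% in the higher direction. Of the 67 list genes, 9 were lower and 1 higher at an adjusted p under 0.05 in DESeq2, against 7.55% and 6.29% of all genes. In limma with a mean FPKM of at least 1, 5 were lower with either pseudocount, against 5.05% and 5.08%. There 0 were higher at an unadjusted p, against 12.9% and 13% of all genes. With a library left out, lower genes numbered 0 to 1 adjusted and 8 to 21 unadjusted, higher ones 1 to 5 unadjusted, and the median ran from -0.44 to -0.11. Of all genes, 0% to 2.17% were lower adjusted in these fits. Unadjusted, 8.09% to 14.8% of all genes were lower and 8.07% to 11% higher. With a library left out, the log2 fold change ran from -0.15 to 0.28 for Acaa1a, -0.72 to 0.70 for Acaa1b, -0.25 to 0.037 for Scp2 and -1.40 to 0.38 for Pex11a, so the sign of these 4 was not fixed. The Acaa1a share differed by -4.18 to 7.88 points and the log2 ratio of Ehhadh to Hsd17b4 by -1.14 to 0.10. Abcd3, Abcd2, Ehhadh and Hsd17b4 kept their direction in 17 of 17 alternatives. Over all genes, 1 was lower at an adjusted p under 0.05 in the main edgeR fit and 1310 in DESeq2. In edgeR this number also depended on the filter and count scale. It was 76 with no filter, 315 with at least 10 counts in every library and 363 with counts divided by 4. Without HTG library 1 it was 419, and with either of the other scalings it stayed at 1. The causes were not tested. The lowest count of a member was 143, for Abcd2 in HTG library 3.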
